A study of Mus musculus with 2 samples.

Results

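The cells described here are basophil-lineage cells of mouse bone marrow with a low level of Cpa3. They were selected on measured values in 2 single-cell libraries of lineage-depleted bone marrow, so the levels of the selecting genes are given as description only. A cell was a member when its UMIs (unique molecules counted) of Mcpt8 and Prss34 together reached at least 20 per 10000 of its UMIs (CP10K), with Epx under 10 and Cpa3 under 20 CP10K, and when under 20% of its UMIs were mitochondrial. Members numbered 225 of 10342 cells kept in all, 135 of 6392 in the hypoxia library and 90 of 3950 in the control library. The marrow came from ICR mice, an outbred stock, aged 7 to 8 weeks. The hypoxia mice lived for 13 days in a chamber at 52.93 kPa, given as equal to 5000 m, with 19.5% oxygen. Control mice were killed when they arrived and were not housed in parallel, so hypoxia cannot be told apart from time, age and handling. All mice shared the depletion of lineage-positive cells by magnetic beads, so the cells are those left after that step. Each group had 1 library, and the number of mice in it was not given in the sources used here.

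Basophils are rare granulocytes that mature in the bone marrow under interleukin 3 and carry the high-affinity IgE receptor. On activation they release histamine, lipid mediators, chemokines and interleukin 4. In mice their granules hold the proteases encoded by Mcpt8 and Prss34, while carboxypeptidase A3, encoded by Cpa3, is best known from mast cells and is also made by basophils and their precursors.

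The selecting genes lie on different chromosomes (GRCm38). Mcpt8 is on chromosome 14, Prss34 on chromosome 17 and Cpa3 on chromosome 3. Mcpt8 and Prss34 levels rose and fell together across members, with a Spearman correlation of 0.75 over the 135 hypoxia members and 0.84 over the 90 control members, although each cell's total enters both levels. Below are the 250 bases upstream of each start site in RefSeq (GRCm38.p6), shown because these 3 genes define the cells. Capitals mark GATAA or its reverse complement TTATC, the core letters read by GATA factors. Either string occurs in the same window of 22.6% of 32851 promoters, and a match is a description of letters, not of binding.
Mcpt8, chr14:56085198-56085447, minus strand: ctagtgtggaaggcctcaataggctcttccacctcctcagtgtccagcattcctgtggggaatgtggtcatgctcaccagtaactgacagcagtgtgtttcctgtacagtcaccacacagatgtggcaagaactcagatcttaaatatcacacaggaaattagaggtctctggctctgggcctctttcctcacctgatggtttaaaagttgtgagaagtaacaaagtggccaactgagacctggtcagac
Prss34, chr17:25298144-25298393, plus strand: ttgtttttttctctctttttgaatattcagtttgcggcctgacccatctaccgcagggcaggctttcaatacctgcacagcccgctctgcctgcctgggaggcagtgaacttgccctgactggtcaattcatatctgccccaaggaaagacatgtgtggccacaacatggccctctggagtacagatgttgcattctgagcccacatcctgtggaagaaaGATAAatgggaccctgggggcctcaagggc
Cpa3, chr3:20242182-20242431, minus strand: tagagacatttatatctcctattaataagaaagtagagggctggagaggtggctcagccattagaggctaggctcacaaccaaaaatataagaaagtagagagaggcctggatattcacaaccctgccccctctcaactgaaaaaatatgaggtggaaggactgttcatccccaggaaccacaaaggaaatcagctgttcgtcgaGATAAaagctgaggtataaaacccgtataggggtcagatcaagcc
Prss34 and Cpa3 each held 1 such string, starting 30 and 45 bases before the start site, and Mcpt8 held none in this window.

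With 1 library per group no test between groups was possible, so values carry neither a p-value nor an error between mice. Intervals are exact 95% intervals that cover counting error only, not differences between mice, preparations or cells. Members were shallow, with a median of 4062 UMIs in hypoxia (1581 to 43703) and 4612 in control (1502 to 41385), against 21584.5 and 32287 over all kept cells. Scrublet, a doublet caller, marked 11 hypoxia members (8.15%) and 3 control members (3.33%), which were kept as the selection rule had it. The libraries shared 23 cell barcodes over all cells. In bulk sums over members, fewer expressing cells and less RNA per cell cannot be told apart, so the number of cells with the gene is given beside the main values.

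The name fits the markers of most members. At least 20 CP10K of 9 basophil markers not used for selection was present in 125 of 135 hypoxia and 87 of 90 control members. Not every marker was widespread. Ccl6 had UMIs in 80 and 57 members, and Il3ra, a receptor chain for interleukin 3, in 32 of 94 and 22 of 53 members under 5000 UMIs. Ms4a2, the beta chain of the IgE receptor, had UMIs in 130 of 135 hypoxia and 88 of 90 control members, with medians of 27.4 and 22.7 CP10K. Gata2, a transcription factor of the basophil and mast cell lineages, was detected in 133 and 88 members, with medians of 40.5 and 31.9 CP10K. After every cell was thinned to 2500 UMIs, which left out 11 and 8 shallower members, Ms4a2 remained in 88.7% of hypoxia and 96.3% of control members, against 0.926% and 0.714% of Klf1-positive erythroid cells, which should lack it (median depths 27354 and 41072 UMIs before thinning). Of 6 defining mast cell markers, Tpsab1, Mcpt4, Cma1, Mrgprb1 and Mrgprb2 were at 0 in the members of both libraries, and no member reached 20 CP10K of the 6 together. Members near the limits were common. The lowest sum of Mcpt8 and Prss34 was 20.1 CP10K in hypoxia and 20.7 in control, with the nearest cells outside at 18.2 and 19.5. Cpa3 reached 19.9 and 19.6 CP10K inside and began at 20.3 and 22.2 outside. Cpa3 lay between 10 and 20 CP10K in 76 hypoxia members (56.3%) and 39 control members (43.3%), and was 0 in 11 and 19.

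Members made up a similar share of both libraries. They were 2.11% of kept hypoxia cells (95% interval 1.77 to 2.49) and 2.28% of kept control cells (1.84 to 2.79), a ratio of 0.927 (0.705 to 1.22). Cpa3-high cells, which met the same limits with Cpa3 at 20 CP10K or more, were 7.82% and 3.65% of cells (ratio 2.15, 1.78 to 2.60). Members were therefore 21.3% of basophil-lineage cells in hypoxia (18.1 to 24.7) and 38.5% in control (32.2 to 45.02), a ratio of 0.553 (0.420 to 0.730).

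Members differed among themselves with depth. Under 5000 UMIs lay 94 hypoxia and 53 control members, which carried 34.5% and 29.0% of the members' UMIs. At 10000 UMIs or more were 21 and 18 members, with 50.4% and 51.8% of the UMIs. In the shallow cells the mean level of Ccl3, a chemokine that draws monocytes and lymphocytes, was 8691 CPM (UMIs per 1000000 UMIs) in hypoxia and 9220 in control. In the deep cells it was 1639.7 and 1289. Gata2 had means of 4449 and 4146 CPM in shallow against 1142 and 1517 in deep cells. Kit, the stem cell factor receptor of progenitors and mast cells, was at 0 in all shallow members and at 185 and 113 CPM in the deep ones. Mpo, the myeloperoxidase of granulocyte-monocyte progenitors, had means of 56.7 and 198 CPM in shallow cells and 1553 and 3314 in deep cells. The members between these depths (20 and 19 cells) had the highest mean of Prss34 of the 3 depth groups, 20543 and 22861 CPM. Mki67, a marker of cycling cells, had means of 100.1 CPM in shallow, 717.5 in middle and 622 in deep hypoxia members. In control members the means were 11.7, 362 and 481.

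Markers of another lineage moved with depth. At least 20 CP10K of the summed markers of neutrophils, granulocyte-monocyte progenitors, monocytes, erythroid cells or megakaryocytes was present in 21 hypoxia and 14 control members (15.6% in each library). Of these, 13 and 10 were among the deep cells. Granulocyte-monocyte progenitor markers reached that limit in 7 hypoxia and 17 control members when Ctsg was counted with them, and erythroid markers in 5 and 2. What these cells are was not tested. Because the deep cells weigh most in summed UMIs, summed values were also computed as means over cells, within members under 5000 UMIs, and without the cells that carry another lineage's markers. These are printed below for genes whose call or size they change.

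**Figure D1:**
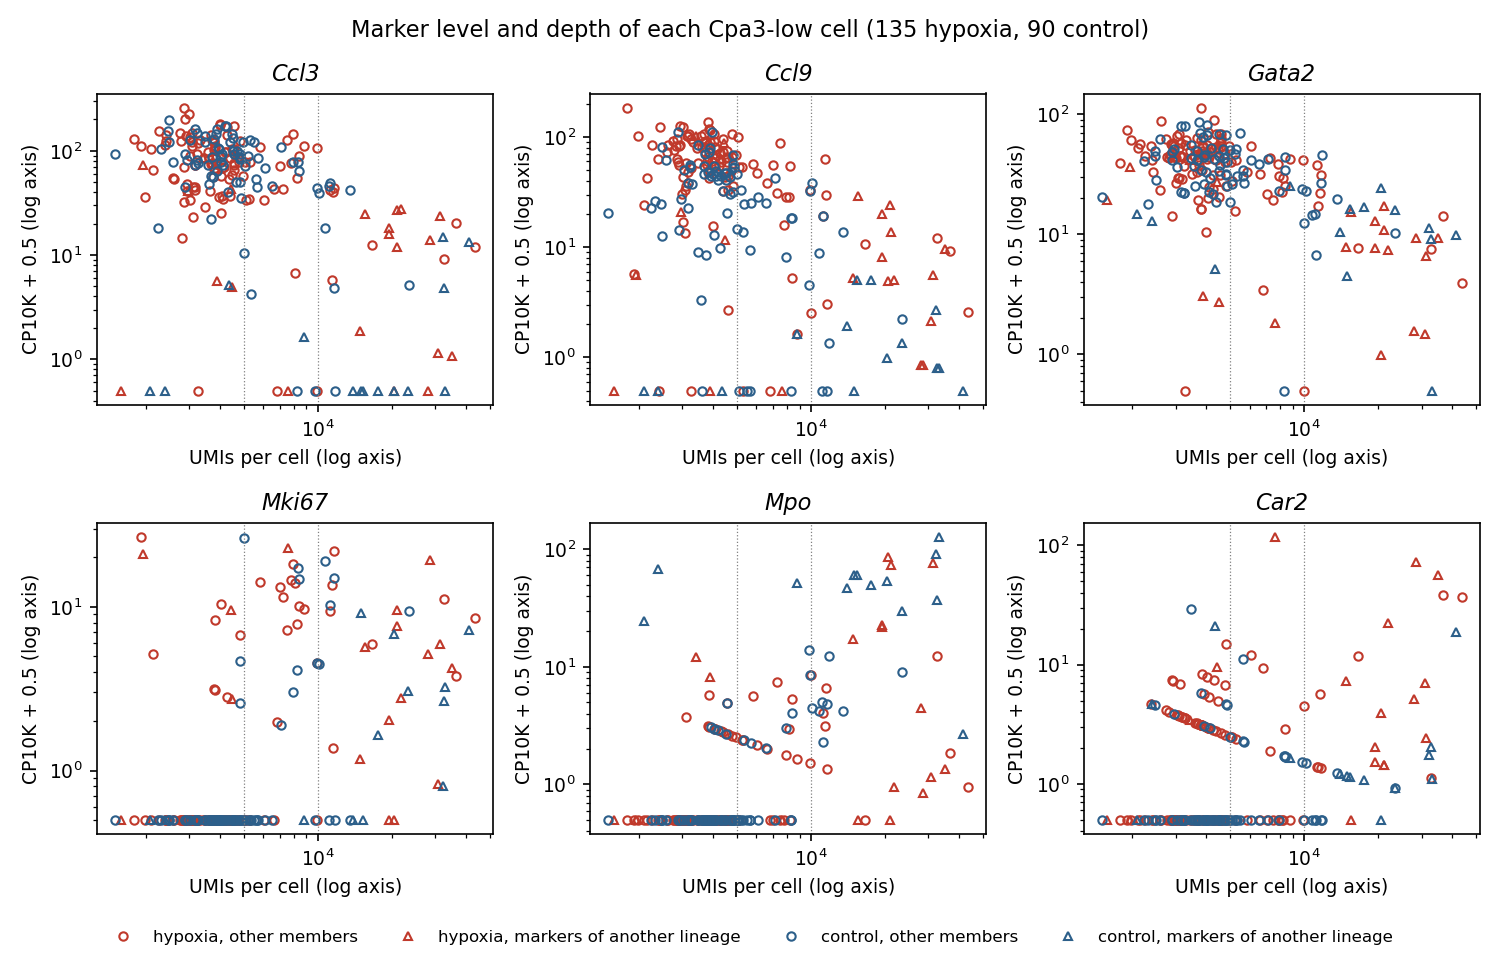
Level of 6 genes (CP10K plus 0.5, log axis) against UMIs per cell (log axis) in every Cpa3-low cell, by library, with triangles for cells holding markers of another lineage and dotted lines at 5000 and 10000 UMIs. Ccl3, Ccl9 and Gata2 are highest in shallow cells of both libraries, while the cells rich in Mpo or Car2 are mostly deep.

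Shallow members also split by Ccl6, a chemokine of myeloid cells. Ccl6 reached 20 CP10K in 37 of 94 shallow hypoxia members (39.4%, 29.4 to 49.98) and 33 of 53 shallow control members (62.3%, 47.9 to 75.2), and was 0 in 37 and 11. The Ccl6-rich cells had median Prss34 levels of 2.08 CP10K in hypoxia and 2.67 in control, while the Ccl6-free cells had medians of 26.2 and 139.6. Mcpt8 differed less between them, at 33.1 against 56.6 CP10K in hypoxia and 48.3 against 124 in control. C3ar1, the receptor for complement fragment C3a, also ran against Prss34, with a Spearman correlation of -0.39 in hypoxia and -0.46 in control over the shallow members. These are descriptions over cells of 1 library each, and Prss34 was used in the selection.

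By the selection rule the members sat at the low end of Cpa3, and Mcpt8 and Prss34 were also used for selection. Depth differed along Cpa3 as well, with medians of 4062 and 4612 UMIs in members against 9311 and 11857 in Cpa3-high cells. Its part in the trends was not tested. Over the 6 Cpa3 bins of all basophil-lineage cells, mean Mcpt8 ran from 6049 CPM in hypoxia and 4200.4 in control, with Cpa3 under 2 CP10K, to 30058 and 34014 at 50 CP10K or more. Prss34 ran from 2528 and 1617 CPM to 40803 and 35321. Ccl6 ran the other way, from 3774 and 5666 CPM to 369 and 409, and C3ar1 from 458 and 660.3 CPM to 46.0 and 24.8. Hspa5, the endoplasmic reticulum chaperone BiP, had means of 284 and 512 CPM at the low end and 2119 and 5149.9 at the high end. Bins under 2 and from 2 to 5 CP10K held 15 and 19 hypoxia cells, and the control bin from 2 to 5 held 8.

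**Figure D2:**
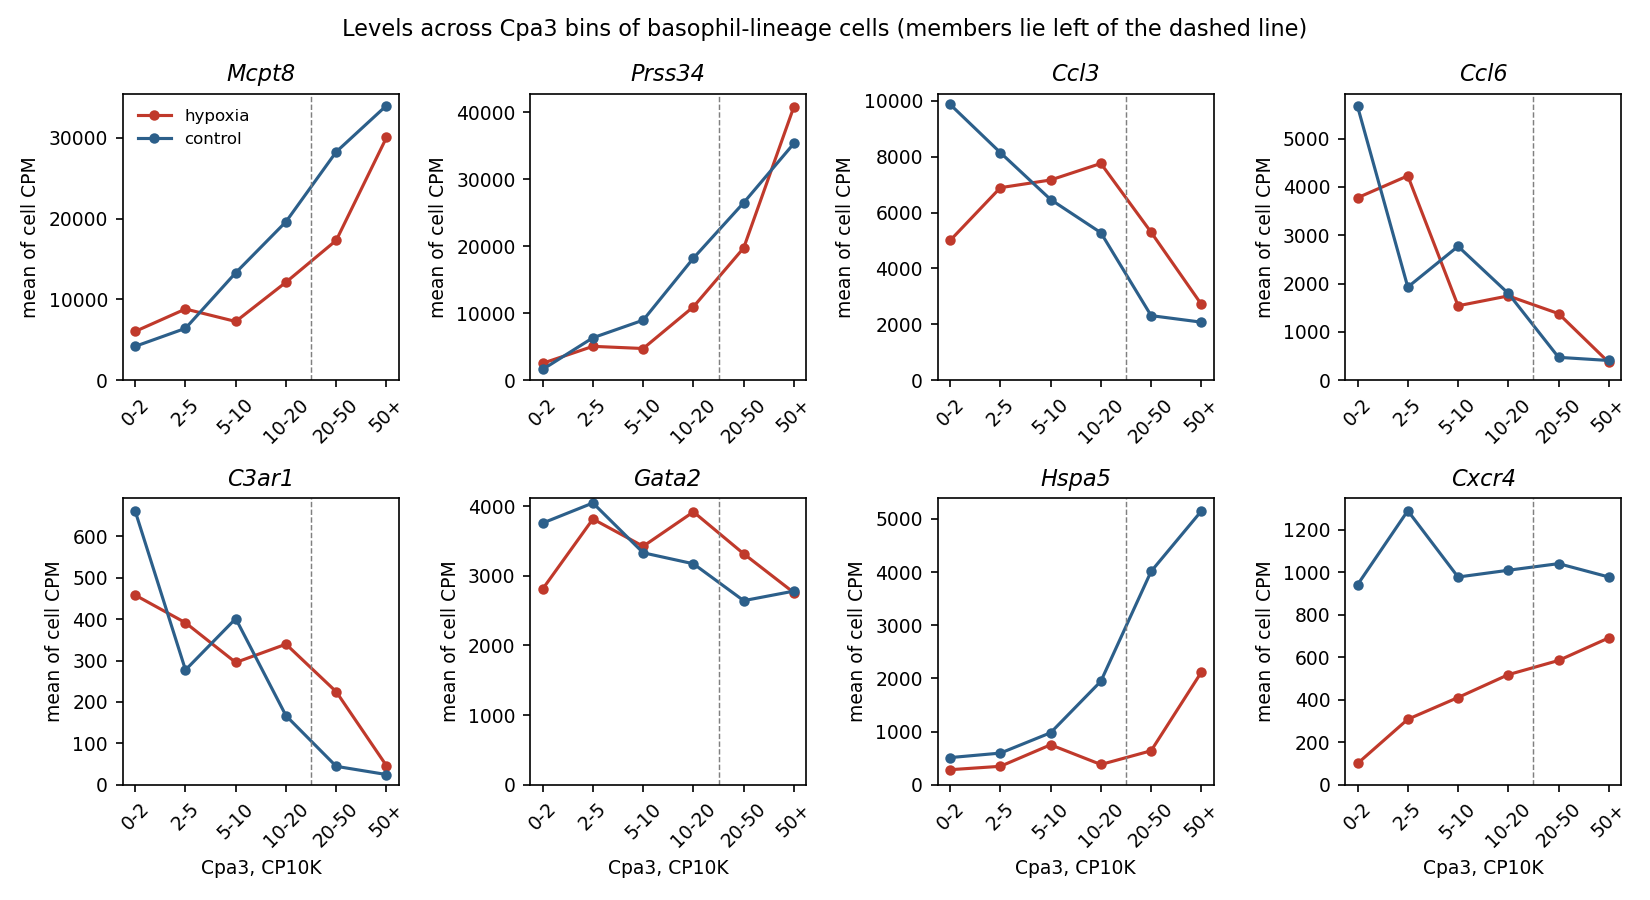
Mean of cell CPM for 8 genes in 6 bins of Cpa3 (CP10K), by library, with members left of the dashed line. Mcpt8, Prss34 and Hspa5 are higher toward high Cpa3, and Ccl6 and C3ar1 toward low Cpa3, in both libraries.

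Against Cpa3-high cells, summed UMIs of members held more chemokine and fewer secretory pathway transcripts. In shallow hypoxia cells the chemokine difference was smaller, and the unfolded protein list was not lower, with a median log2 ratio of 0.036. The classes were cut on Cpa3, so only other genes are given. Of 6466 genes tested, 47 were at least 2-fold higher in members in both libraries (0.727%) and 23 at least 2-fold lower (0.356%). Among chemokines and cytokines 4 of 12 genes were higher, namely Ccl4, Ccl6, Ccl9 and Osm, and none was lower. Ccl6 was at 1252 against 385 CPM in hypoxia (ratio 3.26, 3.03 to 3.499) and 1591 against 269 in control (5.91, 5.30 to 6.60). Ccl9 was at 3275 against 1397 CPM in hypoxia and 1677 against 431 in control. Of 22 surface receptors 2 were higher, namely Itga2, the integrin alpha 2 chain used to gate basophils as CD49b, and the inhibitory receptor Lilrb4a. Of 18 cytokine receptors Il7r and Il18r1 were higher, and of 14 receptors for chemokines and lipid mediators Cxcr2 and C3ar1, with 0 lower in these 3 lists. Il7r, the interleukin 7 receptor, was at 188 against 49.6 CPM in hypoxia and 238 against 27.9 in control. Cd7, a surface protein of lymphoid cells, ranked first among the higher genes by the smaller of its 2 log2 ratios, at 143 against 19.7 CPM in hypoxia (ratio 7.26, 5.59 to 9.45) and 181 against 7.97 in control (22.7, 13.0 to 42.8). Zfp36, which binds AU-rich messages, was at 1251 against 384 CPM in hypoxia and 1421 against 353 in control.

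Of 29 genes of the unfolded protein response 7 were lower in members in both libraries and none was higher, with Hspa5 at 526 against 1992 CPM in hypoxia (0.264, 0.241 to 0.289) and 1861 against 4609 in control (0.404, 0.380 to 0.429). The others were Calr, Creld2, Hyou1, Manf, Pdia4 and Sdf2l1, which are chaperones or folding factors of the endoplasmic reticulum. Of 8 granule protease genes tested, Ctsg (cathepsin G), Gzmb (granzyme B) and Tpsb2 (a mast cell tryptase) were lower. Scin, encoding the actin-severing protein scinderin, was at 1.04 against 69.8 CPM in hypoxia (1 UMI in members, ratio 0.0149, 0.000377 to 0.0838) and 16.3 against 103 in control. Elane and Prtn3, proteases of neutrophil precursors, and the carbonic anhydrases Car1 and Car2 were among the 12 highest named genes but rested on deep cells. Members were shallower than Cpa3-high cells, whose medians were 9311 and 11857 UMIs, and only 115 hypoxia and 14 control Cpa3-high cells had under 5000 UMIs. With both classes held to cells under 5000 UMIs, 0 of 904 genes were higher in both libraries and 3 lower. There the unfolded protein list had a median log2 ratio of 0.036 in hypoxia and -1.64 in control, with Hspa5 at -0.02 and -2.63, Creld2 at -0.03 and -1.99, and Pdia4 at -0.15 and -2.50. The chemokine and cytokine list had medians of 0.30 and 1.45, with Ccl6 at 0.41 and 1.43. Cd7 was at 0.56 and 2.71, and Elane was lower in members, at -0.84 and -1.68. The control values rest on the 14 shallow Cpa3-high cells. Without cells that carry another lineage's markers, 20 genes were higher and 24 lower.

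Between libraries, 456 of 5438 genes tested in members were at least 1.5-fold higher in hypoxia (8.39%) and 321 at least 1.5-fold lower (5.9%). Tested genes had at least 50 UMIs over both libraries' members, and 10 CPM was added on both sides before the log2 ratio, which understates the change of low genes. The 15 highest and 15 lowest genes with at least 50 CPM in either library are named below. Of the 15 highest, 15 stayed at least 1.5-fold higher as means over cells, 15 in members under 5000 UMIs and 11 without cells carrying another lineage's markers. Of the 15 lowest, 14, 11 and 14 stayed at least 1.5-fold lower. Ly6c2 was lost in all 3 views, and Hspa5, Hyou1 and Edem3 in members under 5000 UMIs. Pf4, Ngp, Hba-a2 and Retnlg were lost without cells carrying another lineage's markers. In Cpa3-high cells 14 of the 15 highest and 8 of the 15 lowest genes were at least 1.5-fold apart in the same direction. Those differences were therefore not particular to members.

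The 15 highest genes included several surface proteins. Itga1, the integrin alpha 1 chain that binds collagen (chromosome 13, 114953096 to 115101964), was at 593 CPM in hypoxia and 71.3 in control, a ratio of 8.31 (6.19 to 11.4). Its UMIs were found in 115 of 135 hypoxia members and 19 of 90 control members, with medians of 6.48 and 0 CP10K and highest cells at 34.3 and 17.7. At 2500 UMIs per cell, 71.0% of hypoxia (62.1 to 78.8) and 17.1% of control members (9.66 to 26.98) had Itga1, against 0.123% and 0.134% of erythroid cells. The log2 ratio was 2.89 in members and 2.55 in Cpa3-high cells. Nt5e, the ectoenzyme CD73 that makes adenosine, was at 169 against 16.3 CPM (10.3, 5.63 to 21.1), in 56 and 5 cells, and 1 cell held 45.5% of the control UMIs. Itgam, the integrin alpha M chain of myeloid cells and not among the 15, was at 144 against 28.2 CPM (5.10, 3.15 to 8.73), in 50 and 7 cells, with 31.6% of the control UMIs in 1 cell. Mxra8, a cell surface protein, had 56 UMIs in 38 hypoxia members and 0 in control, at least 13.1-fold higher against a floor of 3 UMIs over the control members.

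Ms4a6c and Ms4a6b, membrane proteins of the same family as Ms4a2, were also higher. Ms4a6c, which also served as a monocyte marker, had 183 UMIs in 59 hypoxia members and 0 UMIs in control members, at least 42.9-fold higher against the same floor. Ms4a6b was at 167 against 13.4 CPM (12.5, 6.42 to 27.8), in 78 and 7 cells. The IgE receptor genes stayed within 1.5-fold, with Ms4a2 at 2199 and 1949 CPM (1.13, 1.05 to 1.21) and Fcer1a, the alpha chain that binds IgE, at 741 and 554 (1.34, 1.18 to 1.52). Ear1, an eosinophil-associated ribonuclease (chromosome 14, 43818765 to 43875517), was at 219 against 2.97 CPM (73.8, 20.2 to 613), in 27 and 2 cells, and no other eosinophil gene is among the 15. Ear1 had a log2 ratio of 4.14 in members and 5.23 in Cpa3-high cells. At least 20 CP10K of 6 eosinophil markers, Ear1 among them, was present in 8 hypoxia and 1 control members. Epx had UMIs in 14 and 3 members. Cells were not left out for eosinophil markers in any view, so the part of such cells in the Ear1 difference was not tested. The Ms4a6 and Ear genes belong to families of related genes, and how reads shared between family members were assigned was not given in the sources used here. Gdpd3, a lysophospholipase, was at 158 against 22.3 CPM (7.07, 4.15 to 13.0), and the predicted gene Gm47015 at 72.0 against 2.97 (24.2, 6.46 to 204, 2 control UMIs). Both also differed outside the members. Gdpd3 had log2 ratios of 2.38 in members, 1.65 in Cpa3-high and 1.25 in erythroid cells, and Gm47015 of 2.66, 2.55 and 0.73.

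Several of the highest genes had a large share of their UMIs in single cells of the hypoxia library. One cell held 72.6% of the UMIs of Pf4, a platelet chemokine, 70.4% of those of Hbb-bs and 66.4% of those of Hba-a1, both globins, and 72.6% of those of Hba-a2. One cell held 99.2% of the UMIs of Ngp and 93.9% of those of Retnlg, both neutrophil genes, and 40.3% of those of Lyz2, the lysozyme of monocytes and neutrophils (42.9% in 1 control cell). Pf4, Hbb-bs, Ngp and Retnlg each had 1 UMI in control members. The ratios were 313 for Pf4 (55.8 to 12377), 209 for Hbb-bs (37.2 to 8269.8), 89.9 for Ngp (15.9 to 3579.7) and 46.4 for Retnlg (8.04 to 1859). Hba-a1 was at 457 against 14.9 CPM and Lyz2 at 135 against 10.4, and Hba-a2 had 62 UMIs against 0, at least 14.5-fold higher. Without cells that carry another lineage's markers the log2 ratio went from 5.37 to 0.25 for Pf4, from 3.64 to -0.10 for Ngp, from 2.90 to 0.57 for Hba-a2 and from 2.78 to 0.57 for Retnlg. It went from 4.80 to 2.08 for Hbb-bs, from 4.23 to 1.47 for Hba-a1 and from 2.83 to 2.13 for Lyz2. In Cpa3-high cells the log2 ratios were 2.34 for Hbb-bs, 2.63 for Hba-a1 and 0.93 for Hba-a2. In erythroid cells they were 1.79, 1.51 and 3.43, so the globin differences were not particular to members. Ngp, Retnlg and Lyz2 were at 2.83, 1.72 and 1.01 in Cpa3-high cells, while Pf4 was at -1.35. Hba-a1 had UMIs in 34 hypoxia and 9 control members, and Hbb-bs in 21 and 1. The Hba genes are near-identical copies, so the limit on shared reads given above holds for them.

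**Figure D3:**
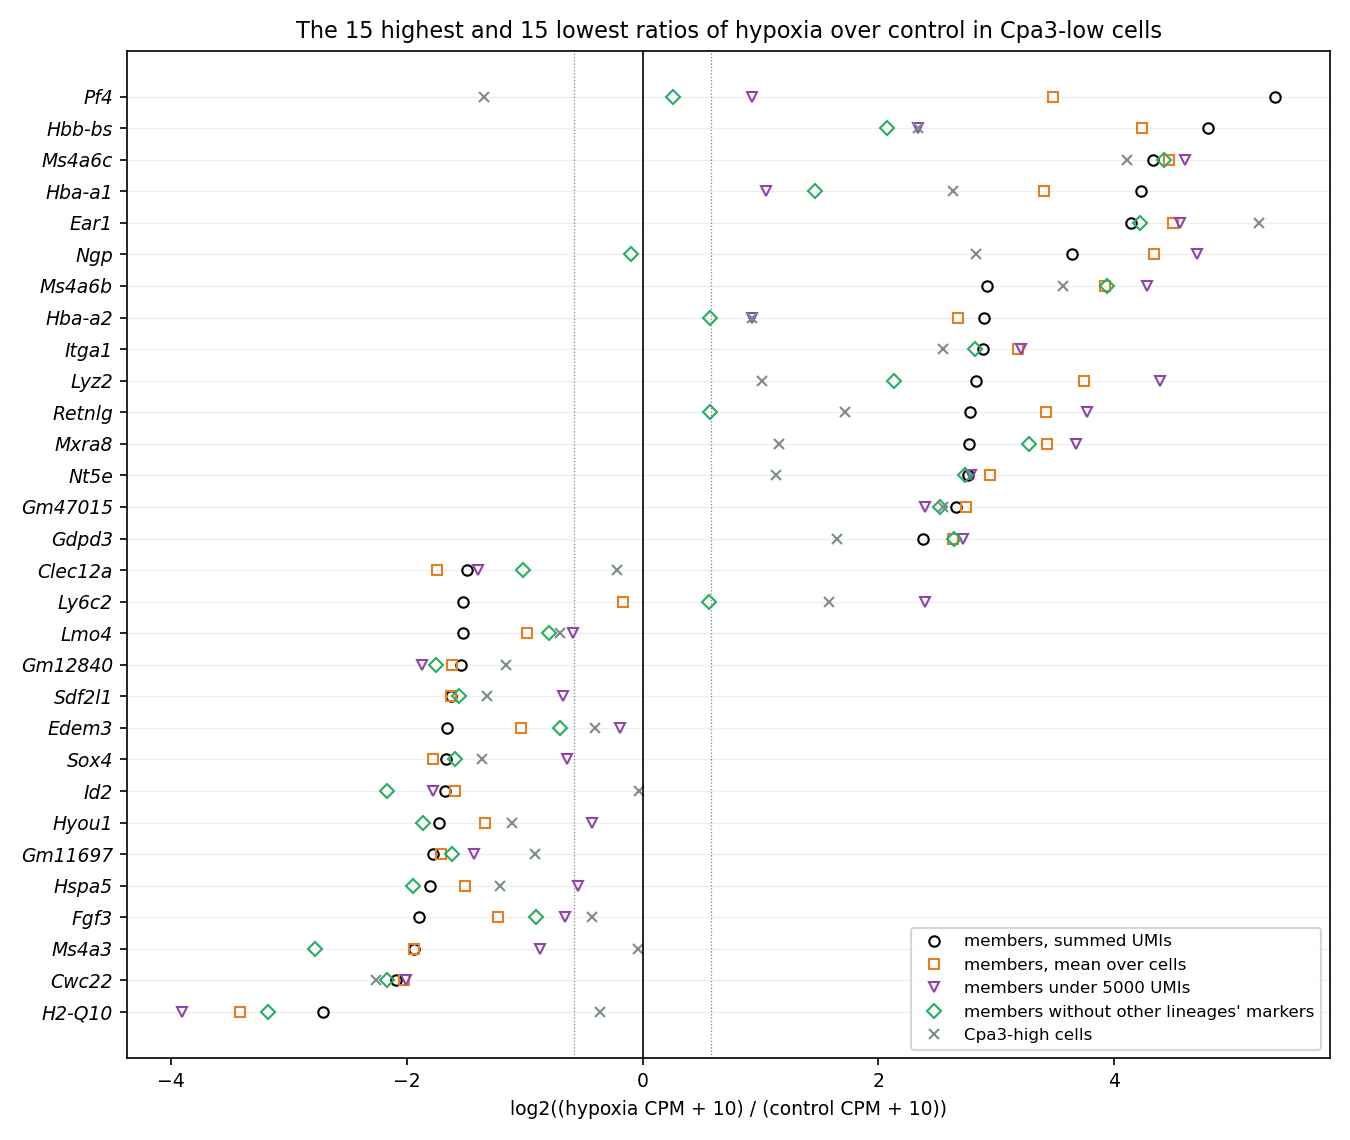
Log2 ratio of hypoxia over control (10 CPM added) for the 15 highest and 15 lowest named genes, from summed UMIs, as a mean over cells, in members under 5000 UMIs, without cells carrying another lineage's markers, and in Cpa3-high cells. Itga1, Ear1, Ms4a6b, Ms4a6c and Nt5e stay at 2.74 or more in the 4 views of the members, while Pf4 falls to 0.25, Ngp to -0.10 and Ly6c2 turns to 2.39. No view leaves out cells for eosinophil markers, Ear1 among them.

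The lowest gene was H2-Q10, a class I gene of the H2 region (chromosome 17, 35470089 to 35474563), at 3.13 CPM in hypoxia and 75.8 in control (0.0413, 0.00825 to 0.128). Its UMIs were in 3 of 135 hypoxia and 26 of 90 control members. Its log2 ratio was -2.71 in members, -0.36 in Cpa3-high cells and 0.06 in erythroid cells, where it was at 0.783 and 0.362 CPM. Members held 15.5% of all H2-Q10 UMIs of the control library. H2-D1, which encodes a classical heavy chain of class I, went the other way, at 2936 against 805 CPM (3.65, 3.33 to 4.01), with medians of 35.5 and 9.54 CP10K over cells. For H2-D1 the log2 ratio was 1.85 in members, 2.17 in Cpa3-high and 2.04 in erythroid cells. Of 17 class I and antigen processing genes tested, 2 were higher and 3 lower, with a median log2 ratio of -0.03. These genes too have near-identical copies.

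Cwc22, a splicing factor (chromosome 2, 77881159 to 77946375), was at 43.8 against 220 CPM (0.199, 0.138 to 0.283), in 30 of 135 and 58 of 90 cells, with log2 ratios of -2.09 in members, -2.26 in Cpa3-high and -1.66 in erythroid cells. Fgf3, a growth factor, was at 9.39 against 62.4 CPM (log2 ratio -1.90, but -0.66 in members under 5000 UMIs), and the predicted genes Gm11697 and Gm12840 at 24 against 107 and 29.2 against 104. Id2 and Lmo4, which regulate transcription through protein partners, were at 21.9 against 92.1 and 410.1 against 1200.2 CPM, with 38.7% of the control UMIs of Id2 in 1 cell. Lmo4 was in 109 and 80 cells, and its log2 ratio of -1.53 was -0.59 in members under 5000 UMIs. Clec12a, an inhibitory lectin receptor of myeloid cells, was at 68.9 against 211 CPM (26.1% of control UMIs in 1 cell), and Sox4 and Ms4a3, genes of progenitors, at 88.7 against 304 and 74.1 against 312. Sox4 was found in 15 and 16 cells, with 25.9% of its control UMIs in 1 cell, and 1 cell held 52.1% of the hypoxia and 30.5% of the control UMIs of Ms4a3. In members under 5000 UMIs the log2 ratio went from -1.67 to -0.64 for Sox4 and from -1.94 to -0.87 for Ms4a3. Ly6c2, a surface antigen of monocytes and other myeloid cells, was at 111 against 337 CPM, but 1 control cell held 76.7% of its control UMIs and 1 hypoxia cell 37.7% of the others, and the log2 ratio of -1.53 turned to 2.39 in members under 5000 UMIs.

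Of the 15 lowest genes 4 belong to protein folding in the endoplasmic reticulum. Hspa5 was at 526 against 1861 CPM (0.283, 0.254 to 0.314), in 91 and 69 cells, Hyou1, its partner chaperone, at 24 against 102, Sdf2l1, a cofactor of Hspa5, at 51.1 against 178, and Edem3, which trims glycans of misfolded proteins, at 43.8 against 160.4. Over the whole list of the unfolded protein response, 0 of 28 genes tested were higher and 16 lower, with a median log2 ratio of -0.70 against 0.04 over all genes. In members under 5000 UMIs the median was -0.20, with 4 of 28 lower and 2 higher. Over all 5438 genes 787 were lower and 825 higher in that view (median 0.013), with no UMI minimum for the shallow members alone. The list's share of lower genes there was near that background, while its median lay below that of all genes. In those shallow members the log2 ratio went from -1.80 to -0.55 for Hspa5, from -1.73 to -0.43 for Hyou1, from -1.66 to -0.19 for Edem3 and from -1.62 to -0.68 for Sdf2l1. Hspa5 had log2 ratios of -1.21 in Cpa3-high and -0.98 in erythroid cells. Of 29 heat shock chaperones 0 were higher and 9 lower (median -0.40, and -0.49 in shallow members), with Hsph1 at 67.8 against 198 CPM. In Cpa3-high cells 0 of the 28 unfolded protein genes were higher and 16 lower. Of the 29 heat shock chaperones 0 were higher and 11 lower in Cpa3-high cells (median -0.35). Over the 5424 genes tested in Cpa3-high cells 280 were higher and 151 lower. The differences of both lists were therefore not particular to members.

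Of 29 genes of the immediate early and dissociation stress list 1 was higher, Klf4, and 10 were lower (median -0.25). Nfkbia, the inhibitor of NF-kappaB and one of its targets, was at 269 against 722 CPM (0.373, 0.319 to 0.435), in 81 of 135 and 77 of 90 cells, with medians of 1.81 and 6.28 CP10K. The log2 ratio of Nfkbia was -1.39 in members, -1.45 in shallow members and -0.99 in erythroid cells. Nfkbiz, a related inhibitor protein, was at 47.0 against 132 CPM, and the cytokine Tnf at 30.3 against 98.0 (0.309, 0.192 to 0.485), in 13 and 22 cells. Also in the list, Ier2 was at 528 against 1069 and Fos at 821 against 1395 CPM. Without the cells marked by Scrublet the list's median was 0.036, and without cells carrying another lineage's markers the log2 ratio of Klf4 went from 2.25 to -0.0034. In erythroid cells Ier2 and Fos had log2 ratios of -1.24 and -0.60. In Cpa3-high cells 0 of the 29 genes of this list were higher and 8 lower (median -0.31).

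**Figure D4:**
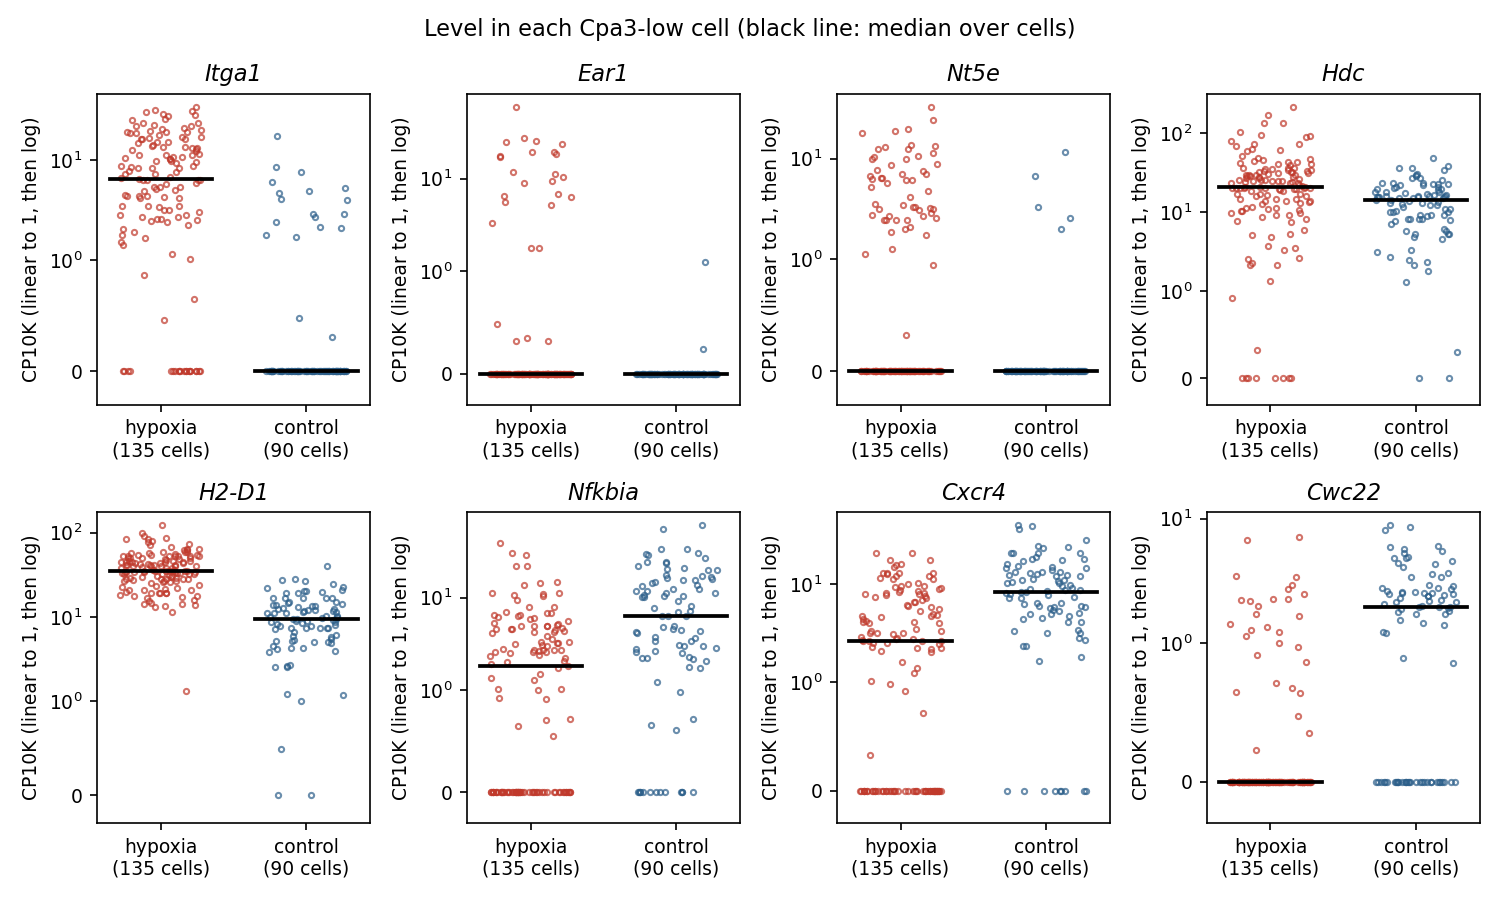
Level (CP10K, linear to 1 and then logarithmic) of 8 genes in each Cpa3-low cell of both libraries, with black lines at medians. The medians of Itga1, Hdc and H2-D1 are higher and those of Nfkbia, Cxcr4 and Cwc22 lower in the hypoxia cells, and the ranges overlap in every panel.

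Genes for receptors and mediators of basophils moved one by one. Cxcr4, the receptor for the marrow chemokine Cxcl12, was at 396 against 908 CPM (0.436, 0.382 to 0.496), in 87 and 81 cells, with medians of 2.63 and 8.34 CP10K. Its log2 ratio was -1.18 in members, -0.71 in Cpa3-high and -0.05 in erythroid cells. Il1rl1, the interleukin 33 receptor, was at 133 against 232 CPM (0.572, 0.449 to 0.728) and P2rx4, an ATP-gated channel, at 49.1 against 114. Csf2rb, the shared beta chain of the interleukin 3 receptor, was at 1286 against 1588 CPM and Il3ra, its alpha chain, at 84.5 against 77.2, both within 1.5-fold. Of 18 genes of IgE receptor signalling 2 were higher and 0 lower, namely Lat2, an adaptor (741 against 426 CPM), and the kinase Btk (177 against 104). Of 25 surface receptors 9 were higher and 4 lower. Over all genes tested 8.39% were higher and 5.9% lower, to be set beside the counts of every list.

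Histamine genes split. Hdc, which makes histamine, was at 1775 against 1035 CPM (1.71, 1.57 to 1.88), with medians of 21.0 and 14.2 CP10K, while Slc18a2, the vesicular transporter that loads histamine into granules, was at 109 against 318 (0.341, 0.267 to 0.434), in 61 of 135 and 68 of 90 cells. In shallow members the log2 ratios were 1.0003 for Hdc and -0.78 for Slc18a2, and in Cpa3-high cells 0.68 and -1.01. Pla2g4a, which frees arachidonic acid for lipid mediators, was at 75.1 against 37.1 CPM. Of 12 histamine and eicosanoid genes 3 were higher and 3 lower. Among 12 cytokines and chemokines 2 were higher, Ccl9 (3275 against 1677 CPM, 1.95, 1.82 to 2.09) and Il4 (101 against 56.4, 1.79, 1.22 to 2.68), and 2 lower, Tnf and Cxcl2. Cxcl2 was seen in 2 and 3 cells, with 78.9% and 48.6% of its UMIs in 1 cell each. Ccl3 was at 4624 against 4238 CPM and Ccl6 at 1252 against 1591, both within 1.5-fold. The granule genes Mcpt8 and Prss34, used for selection, were at 10186 against 13950.4 and 9780 against 11289 CPM.

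Genes of the low-oxygen response showed no common direction. Of 26 targets of hypoxia-inducible factor 2 were higher, Slc2a3, a glucose transporter (137 against 84.7 CPM), and Tfrc, the transferrin receptor (145 against 77.2), and 1 was lower, the glycolytic regulator Pfkfb3 (31.3 against 53.5), with a median log2 ratio of -0.16. Tfrc had a log2 ratio of 0.83 over all members and -0.30 in shallow members, and 1 cell held 38.5% of its control UMIs. Of 15 glycolysis genes 2 were higher and 0 lower. Of S phase genes 3 of 36 were higher and 0 lower (median 0.24), a share of higher genes near the 8.39% of all genes. In shallow members 5 were higher and 10 lower. In that view 825 of all 5438 genes were higher and 787 lower. The share of higher S phase genes was again near the background and that of lower ones was above it, with a median of -0.04. Without Scrublet-marked cells the S phase median was -0.039. Of G2/M genes 6 of 46 were higher and 0 lower (median 0.25). In shallow members 17 were higher and 4 lower (median 0.39), with no UMI minimum set for that view. Over the 5 genes that kept at least 50 UMIs in shallow members the median was -0.39. The direction of the G2/M list in shallow members therefore depended on that minimum. Mki67 was at 448 against 303 CPM, in 43 and 22 cells. Of 43 transcription factors 3 were higher and 9 lower, and Gata2 (2411 against 2485 CPM) and Cebpa (796 against 1118), which direct basophil fate, stayed within 1.5-fold.

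Marker lists of other lineages also differed between the libraries' members. Higher were 16 of 16 erythroid genes tested (median 1.36, and 0.35 in shallow members), 8 of 12 monocyte and 4 of 7 neutrophil genes, with 1 lower in each of the last 2 lists. Some of these genes reached the UMI minimum through their hypoxia cells alone, so these counts are no measure of the whole lists. Without the cells that carry another lineage's markers 0 of 7 neutrophil genes were higher (median 0.06 in place of 1.39), and 6 of 12 monocyte and 13 of 16 erythroid genes. Of 12 granulocyte-monocyte progenitor genes 10 were lower and 0 higher (median -0.96, and -0.12 in shallow members), with Mpo at 836 against 2243 CPM in 44 and 33 cells (29.5% and 27.7% of its UMIs in 1 cell each). Defining markers summed to 1347 against 260 CPM for erythroid cells, 352 against 47.5 for monocytes, 772 against 248 for neutrophils and 2024 against 4957 for granulocyte-monocyte progenitors. Csf1r and Ms4a6c among the monocyte markers, Ltf among the neutrophil and Gp9 among the megakaryocyte markers were at 0 in control members, and none of these lists had a marker at 0 in hypoxia members. Their part in the differences above was not tested. In Cpa3-high cells 15 of 15 erythroid genes were higher (median 1.60), 5 of 7 neutrophil genes (1.72) and 6 of 8 monocyte genes (0.97). Higher markers of these 3 lineages were therefore not particular to members. Of the 12 granulocyte-monocyte progenitor genes 2 were higher and 1 lower in Cpa3-high cells (median -0.09).

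**Figure D5:**
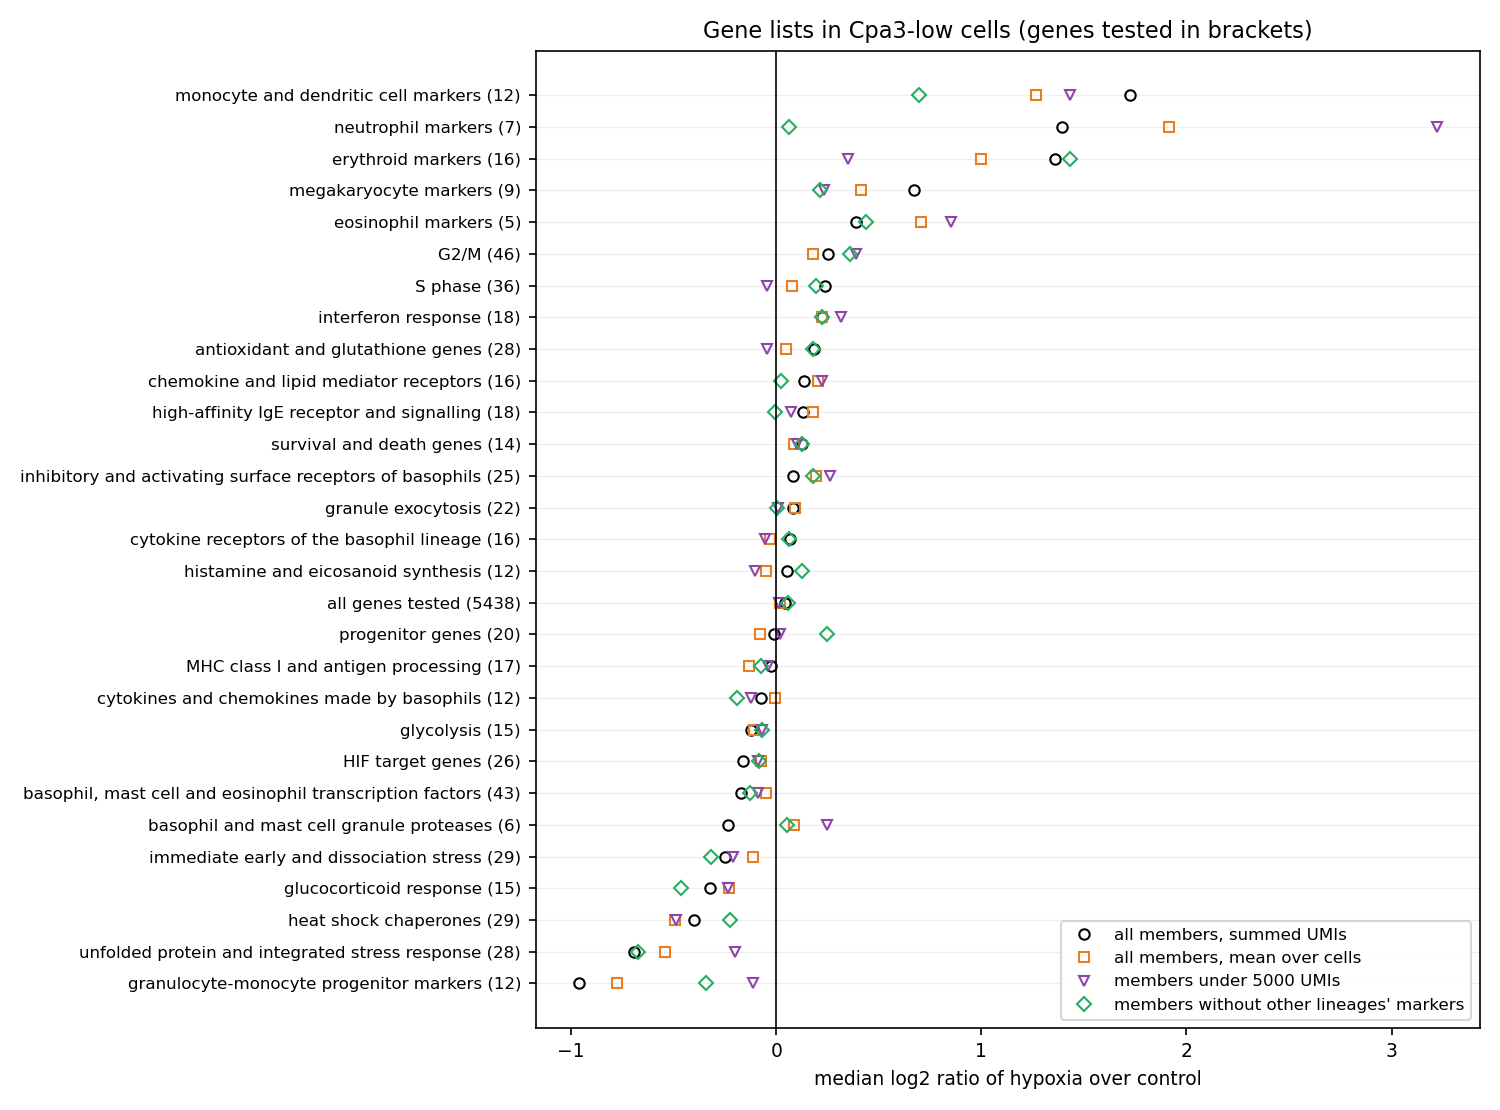
Median log2 ratio of hypoxia over control for each list with at least 5 genes tested, from summed UMIs, as a mean over cells, in members under 5000 UMIs and without cells carrying another lineage's markers, beside all genes tested. Lists of basophil function lie near 0, the unfolded protein and heat shock lists lie below it, and the marker lists of other lineages spread widest between views.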

How the data were processed

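Counts of UMIs per cell and gene were used as deposited, raw and corrected by the pipeline for substitution errors. Per the file headers, the authors used version 1.7.1 of the BD WTA Rhapsody pipeline, with GRCm38 and GENCODE vM19. The submitters' processing notes name Bowtie2. Cell calling was not given in the sources used here. Deposited tables held 6406 hypoxia and 3956 control cells with 137504361 and 121415081 UMIs, of which members held 958187 and 673244. Genes in 1 table alone counted as 0 in the other.

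Members' UMIs were summed and scaled to CPM. Mitochondrial genes, Xist, several Y genes and the selecting genes were left out of tests, while other X-linked genes were kept. Names follow a rule: the 15 highest and 15 lowest ratios with at least 50 CPM, 12 and 12 for Cpa3-low against Cpa3-high, up to 4 members of each gene list, and fixed basophil genes. Further genes were named after their values were seen. Members and lists were chosen with earlier results of these data known. Shares have Clopper-Pearson intervals and UMI sums exact Poisson-based ones (95%). Coordinates come from GENCODE vM21 (GRCm38). The statistics were checked on simulated counts. Python 3.11.15, scanpy 1.11.5 (Scrublet) and edgeR 4.0.16 (TMM factors only) were used.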

Additional observations from a re-analysis of the deposited data

Results flagged for a closer look

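Pf4 and Ly6c2 had opposite directions in Cpa3-low and Cpa3-high cells, and that difference was not tested. Hypoxia over control, Pf4 had a log2 ratio of 5.37 in Cpa3-low and -1.35 in Cpa3-high cells, with 72.6% of the hypoxia UMIs of the former in 1 cell. Ly6c2 had -1.53 in Cpa3-low and 1.58 in Cpa3-high cells, with 76.7% of the control UMIs of the former in 1 cell.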

How the results depend on the processing

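No paired analysis was possible because each group has 1 library. The number of tested genes follows the UMIs available, so counts of calls moved with limits on cells and UMIs. Higher and lower counts of 456 and 321 became 148 and 133 with 50 CPM added, 1151 and 826 with a minimum of 1 UMI, 87 and 96 with at least 200 UMIs, 184 and 171 in members thinned to 2500 UMIs, and 183 and 166 in members under 5000 UMIs. The higher count was 770 with a limit of 10 CP10K for Mcpt8 and Prss34. The ratio of shares, 0.927, was 0.553 within basophil-lineage cells and between 0.715 and 1.09 under the other limits. For Cpa3-low against Cpa3-high, 47 higher and 23 lower became 0 and 3 in cells under 5000 UMIs and 20 higher without other lineages' markers, while lower genes were 45 with Cpa3 under 10 CP10K and 76 as means over cells. The limit of 5000 UMIs, the removal of cells with other markers and the means over cells for the 2 classes were added after the data were seen.

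Of the 16 alternatives, those that change the CPM added or the UMI minimum cannot turn the log2 ratio of a gene. Other scalings moved the median of all genes only from 0.045 to 0.0015 and 0, too little to turn a gene 1.5-fold apart. With those counted, 74 of 83 named genes at least 1.5-fold apart kept their direction under all 16. Among the rest, Ly6c2 was at 0.26 with a limit of 40 CP10K, 2.39 under 5000 UMIs and 0.56 without other markers, and Elane at 0.31 and 0.085 under the first and second of these. Under 5000 UMIs Cd34 was at -0.60, Dusp2 at 0.68, Tfrc at -0.30 and Prdx2 at -0.12. Without other markers Ngp was at -0.10 and Klf4 at -0.0034, and with Cpa3 under 10 CP10K Ngp was at -0.37 and S100a8 at -1.22. List medians that turned were granule proteases (0.051 without other markers, 0.087 as means over cells), S phase (-0.039) and immediate early genes (0.036) without Scrublet-marked cells, G2/M (-0.39 under 5000 UMIs over the 5 genes that keep 50 UMIs there, but 0.39 over all 46), interferon (-0.31 with Cpa3 under 10 CP10K, -0.10 at 200 UMIs), eosinophil (-0.027 with a limit of 10 CP10K, -0.18 at 1 UMI) and neutrophil markers (-0.59 with Cpa3 under 10 CP10K). Between the classes, Elane turned to -0.31 without Scrublet-marked cells, -1.68 under 5000 UMIs and -0.46 without other markers, and under 5000 UMIs Prtn3 was at -1.69, Car1 at -0.96, Car2 at -0.44 and Gzmb at 2.20. The causes were not tested.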
